A study of Mus musculus with 8 samples.

Results

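The genes of glycolysis and the pentose phosphate pathway are described here across the 3 groups of a study of macrophage activation. The set held 36 genes: transporters that bring in glucose, the enzymes that turn glucose into lactate, the transporters that export lactate, a kinase that closes the way from pyruvate into mitochondria, and the enzymes that make NADPH and ribose phosphate. They were taken by gene symbol from a table of 20258 rows with a symbol, and all 36 were found there. Each of the 36 varied between libraries and was among the 13615 genes tested. In 29 of them the value was above 0 in every library, and 7 were listed at 0 in at least 1 library.

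Glycolysis splits glucose in the cytosol and gives ATP, NADH and pyruvate, and lactate dehydrogenase turns pyruvate into lactate and so restores NAD. The pentose phosphate pathway branches off after the hexokinase step; its oxidative part makes NADPH and its non-oxidative part exchanges sugars between ribose phosphate and glycolysis. Macrophages activated by bacterial products are known for fast glycolysis and lactate release, while those activated by interleukin 4 (IL4) are known for a larger share of mitochondrial respiration. Many of the steps are run by several isoenzymes, which differ in their control and in the tissues where they are abundant.

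All libraries came from bone-marrow-derived macrophages, which are grown in culture from marrow precursors, of C57BL/6 mice. Cells were kept for 24 h with lipopolysaccharide plus interferon gamma (LPS plus IFNg, 3 libraries), with IL4 (3 libraries) or without a stimulus (2 libraries). The authors' values are log2 expression after quantile normalisation, from sequencing of transcript 3' ends, so a difference of 1 is a doubling, and depth is unknown. The labels name no animal or culture for any library, so a p-value reflects the spread among these libraries alone, and that spread may be technical.

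The libraries carried the marks of their labels. Nos2, the inducible nitric oxide synthase, stood at 10.06 to 10.43 with LPS plus IFNg and was listed at 0 in the other 5 libraries, and Arg1, the arginase of alternative activation, stood at 7.57 to 7.80 with LPS plus IFNg, 13.41 to 13.69 with IL4, and 2.31 and 4.19 without stimulus. All 8 macrophage markers on a fixed list were above 0 in every library; their summed level on the log2 scale was 13.82 to 13.93 with LPS plus IFNg, 13.79 to 14.25 with IL4 and 14.58 to 14.67 without stimulus. By limma, 1 of the 8 was higher and 3 lower with LPS plus IFNg, and 3 were lower with IL4, than without stimulus. The summed level of 7 neutrophil markers was 7.65 to 8.14 with LPS plus IFNg, 9.78 to 10.60 with IL4 and 10.92 to 11.14 without stimulus, so it was lowest in the LPS plus IFNg libraries. The summed level of 5 fibroblast markers was 10.19 to 11.14 with LPS plus IFNg, 10.11 to 10.69 with IL4 and 11.14 to 11.56 without stimulus. Of the dendritic cell, lymphocyte, mast cell and erythroid markers, Cd3e, Ncr1, Mcpt4, Fcer1a, Hbb-b1 and Alas2 were at 0 in every library, and no list exceeded a summed level of 5.97. The part of these other cells in the results was not tested. Genes listed at 0 numbered 9606 to 9627 with LPS plus IFNg, 9846 to 10210 with IL4, and 8219 and 9230 without stimulus.

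LPS plus IFNg raised genes at several steps between glucose and lactate. Relative to unstimulated cells, 9 of the 36 genes were higher and 0 lower at an adjusted p of at most 0.05 (limma, two-sided, Benjamini-Hochberg over the 13615 genes), and 27 did not pass; at an unadjusted p under 0.05 these counts were 15 higher and 4 lower, while 8.47% of all genes tested were higher and 10.9% lower. The 9 were the hexokinases Hk2 and Hk3, Pfkfb3, which makes the strongest activator of phosphofructokinase, the middle enzymes Tpi1, Pgk1 and Pgam1, the lactate dehydrogenase subunit Ldha, the lactate exporter Slc16a3, and Pgd of the pentose phosphate pathway. At the adjusted threshold 3.72% of all genes tested were higher and 4.25% lower. The log2 changes of the 9 ran from 0.75 for Ldha to 3.74 for Pfkfb3. The median change of the 36 was 0.53, or 0.58 over the 35 without Aldoc, which had 0 in every LPS plus IFNg library, against -0.04 for all genes tested. In bulk samples such as these, less RNA per cell and fewer cells with a transcript cannot be told apart.

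The 25 genes between glucose uptake and lactate export held 8 of these 9, with a median change of 1.06, and the 11 genes of the pentose phosphate pathway and ribose phosphate use held 1, with a median of 0.26. Of the 36 genes, 20 stood at 5 or more in every library, as did 5348 of the 13615 genes tested. Hk3, Pgk1, Slc16a3 and Tpi1 passed whichever library was left out; the other 5 did not, and their values are given with each gene. When libraries were set to equal means of 15 housekeeping genes, the median of all genes moved by 0.61 in this comparison. Of the 36, 12 then passed as higher and 0 as lower. Over all genes 950 were then higher and 282 lower, in place of 506 and 579. As deposited, the 15 housekeeping genes themselves had a median change of -0.67, with 0 higher and 1 lower by limma. Whether they are a steady reference under this stimulus was not tested.

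With IL4 a single gene of the pathway passed, a hexokinase. Hk2 was higher than in unstimulated cells, 0 genes were lower and 35 did not pass by limma, while at the same threshold 0.514% of all genes tested were higher and 0.793% lower. At an unadjusted p under 0.05, 4 of the 36 were higher and 2 lower, and 5.53% of all genes tested were higher and 6.57% lower. The median change of the 36 was -0.08, against -0.01 for all genes tested. Equal means of the housekeeping genes moved the median of all genes by 0.11 and left 1 of the 36 higher and 0 lower, and over all genes 79 were higher and 81 lower in place of 70 and 108. The call on Hk2 was lost when any library other than LPS plus IFNg replicate 1 was left out, with the values given at the hexokinase step.

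**Figure D1:**
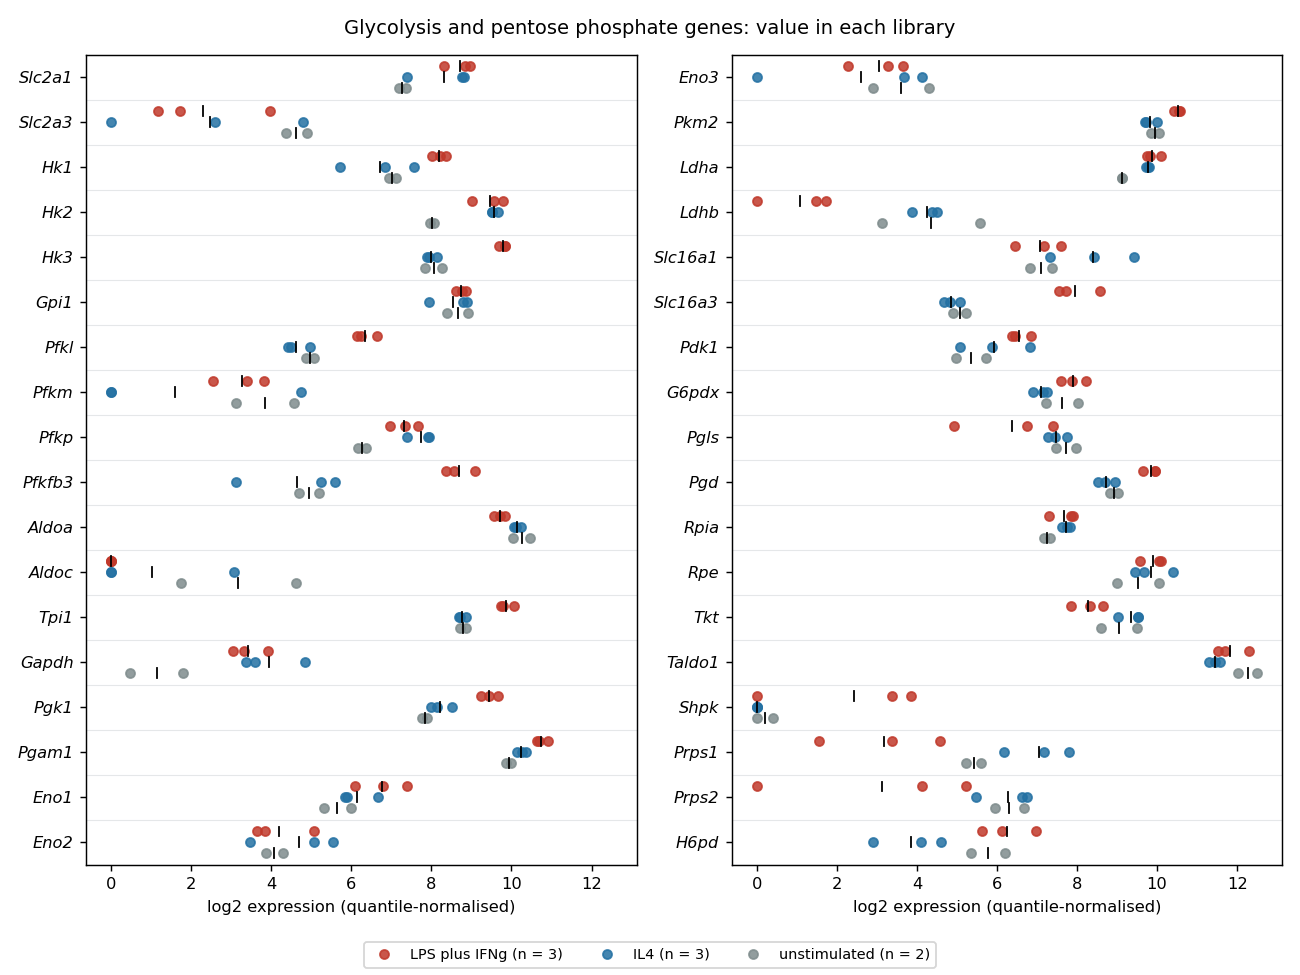
Deposited log2 expression (horizontal axis, quantile-normalised) of the 36 genes in each library; points are the 3 LPS plus IFNg, 3 IL4 and 2 unstimulated libraries and the black ticks are group means. The LPS plus IFNg points of Hk1, Hk3, Pfkl, Pfkfb3, Tpi1, Pgk1, Pgam1, Pkm2, Slc16a3 and Pgd stand to the right of all other points of these genes. For instance, Hk3 stands at 9.68 to 9.84 against at most 8.26 elsewhere. Of these genes, Hk1 passed in no comparison outside the alternative settings.

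LPS plus IFNg set directly against IL4 gave 8 higher genes, 1 lower gene and 27 that did not pass; among all genes tested 5.91% were higher and 6.96% lower. At an unadjusted p under 0.05 there were 13 higher and 6 lower of the 36, with 11.6% higher and 13.9% lower among all genes tested. Higher were Hk3, Pfkl, Pfkfb3, Tpi1, Pgk1, Pkm2, Slc16a3 and Pgd. Prps1, which makes the activated ribose phosphate for nucleotides, was lower. The comparisons with unstimulated and with IL4 cells share the LPS plus IFNg libraries; 6 genes were higher in both, Hk2, Ldha and Pgam1 against unstimulated cells alone, and Pfkl and Pkm2 against IL4 alone. The median change of the 36 was 0.39, against 0 for all genes tested. Equal housekeeping means moved the median of all genes by 0.50, with 12 of the 36 then higher and 1 lower. Over all genes 1377 were then higher and 522 lower, in place of 804 and 948. As deposited, the 15 housekeeping genes themselves had a median change of -0.44 in this comparison, with 0 higher and 2 lower by limma. Hk3, Pfkfb3, Pgd, Pgk1, Slc16a3 and Tpi1 passed whichever library was left out.

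**Figure D2:**
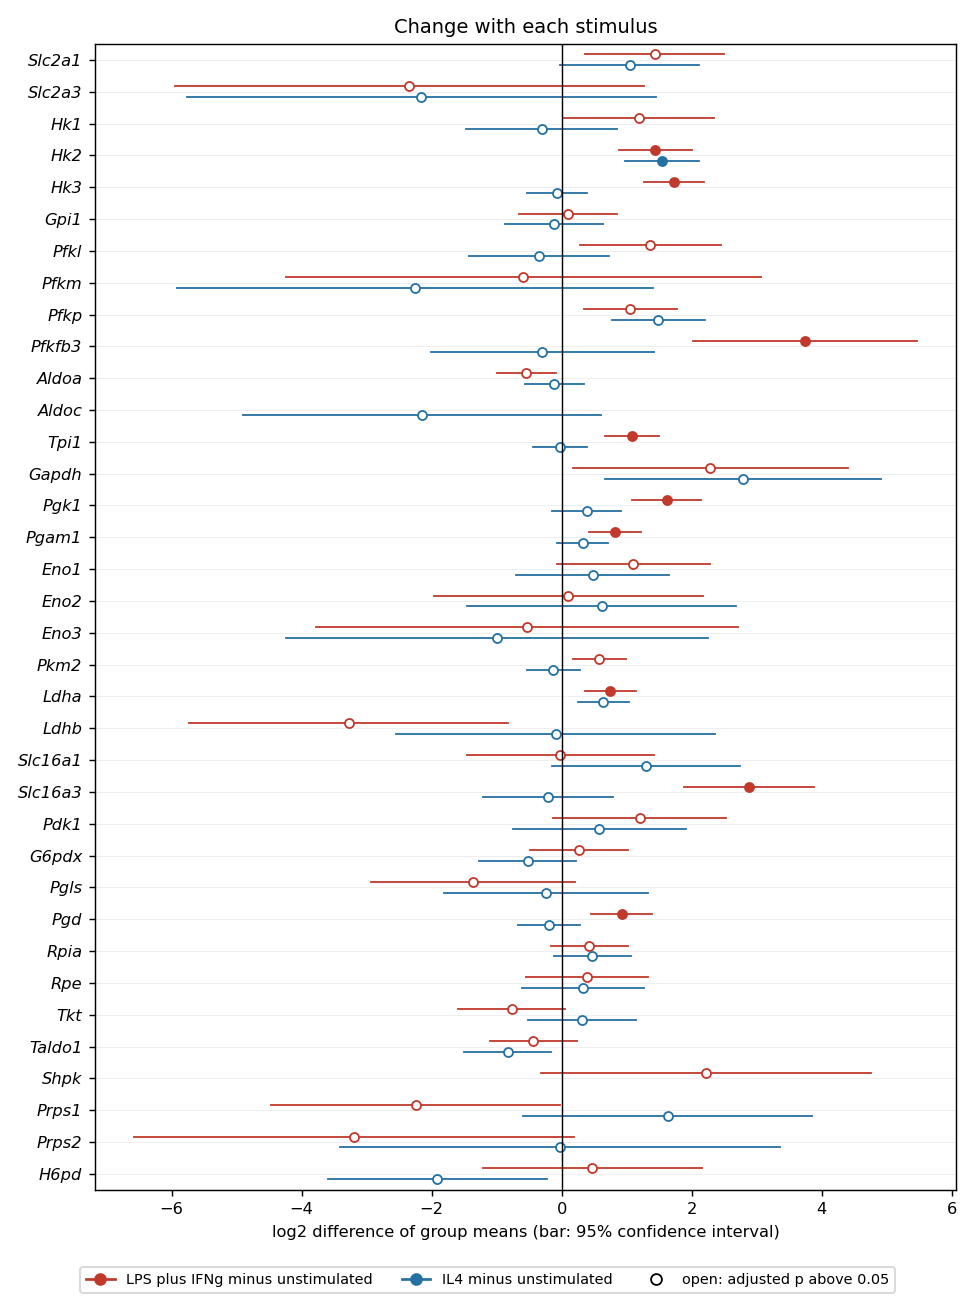
Difference of group means on the log2 scale (horizontal axis) with its 95% confidence interval for LPS plus IFNg minus unstimulated and IL4 minus unstimulated; filled points have an adjusted p of at most 0.05. Hk2 is filled for both stimuli, at 1.44 with LPS plus IFNg and 1.55 with IL4, and the other 8 filled points belong to LPS plus IFNg; a gene listed at 0 in a whole group has no point.

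Stretches upstream of the start are shown for the 4 genes that rose with LPS plus IFNg whichever library was left out, Hk3, Pgk1, Slc16a3 and Tpi1, and for Hk2, which passed with both stimuli. They are the 250 bases before the RefSeq start, from the gene's own strand, at chr13:55021386-55021635 (minus strand) for Hk3, chrX:106186850-106187099 (plus) for Pgk1, chr11:120948817-120949066 (plus) for Slc16a3, chr6:124814159-124814408 (minus) for Tpi1 and chr6:82774455-82774704 (minus) for Hk2, in RefSeq's GRCm38.p6, a later build than the mm9 named for these data. Capitals mark ACGTG and GCGTG, the cores bound by hypoxia-inducible factors, and their reverse complements.
Hk3: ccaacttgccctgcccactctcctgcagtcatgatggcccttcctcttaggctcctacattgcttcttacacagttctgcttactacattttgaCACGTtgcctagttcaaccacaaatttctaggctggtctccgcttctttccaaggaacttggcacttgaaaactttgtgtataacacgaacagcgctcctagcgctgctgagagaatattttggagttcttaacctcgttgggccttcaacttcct
Pgk1: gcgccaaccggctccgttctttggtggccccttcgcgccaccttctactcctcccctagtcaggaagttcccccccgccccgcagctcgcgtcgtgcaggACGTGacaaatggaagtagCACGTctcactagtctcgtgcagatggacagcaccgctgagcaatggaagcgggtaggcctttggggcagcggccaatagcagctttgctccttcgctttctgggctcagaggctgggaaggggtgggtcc
Slc16a3: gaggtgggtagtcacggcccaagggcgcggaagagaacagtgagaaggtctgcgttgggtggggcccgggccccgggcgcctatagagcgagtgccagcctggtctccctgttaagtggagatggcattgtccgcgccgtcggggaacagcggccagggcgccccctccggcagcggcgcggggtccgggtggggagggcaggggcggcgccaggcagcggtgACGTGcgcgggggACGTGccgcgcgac
Tpi1: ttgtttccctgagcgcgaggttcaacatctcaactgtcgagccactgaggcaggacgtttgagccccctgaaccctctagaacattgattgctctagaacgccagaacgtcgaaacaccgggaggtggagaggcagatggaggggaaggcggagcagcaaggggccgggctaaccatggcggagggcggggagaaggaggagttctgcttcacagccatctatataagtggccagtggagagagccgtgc
Hk2: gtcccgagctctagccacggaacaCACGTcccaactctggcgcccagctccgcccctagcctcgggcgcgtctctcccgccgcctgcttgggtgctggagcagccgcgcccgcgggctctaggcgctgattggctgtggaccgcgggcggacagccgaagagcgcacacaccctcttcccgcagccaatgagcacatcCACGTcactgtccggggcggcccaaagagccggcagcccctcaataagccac
The stretch of Hk3 held 1 such core, those of Pgk1, Slc16a3 and Hk2 held 2 each, and that of Tpi1 held none of these letters. RefSeq windows of 300 bases (250 before and 50 after the start) matched 35 of the 36 genes with 49 windows. ACGTG or GCGTG on either strand stood in 38 of the 49 (77.6%), against 43.8% of 32851 windows of the genome. ACGTG alone, which includes every CACGTG, stood in 38.8% against 19.6%, and CACGTG in 8.16% against 7.15%. Some genes had several windows that overlapped, as for Aldoa, so the same core could be counted more than once. By gene, 30 of the 35 held ACGTG or GCGTG in a window. No share by gene was computed for the genome, so this count has no background and cannot be set against the share of windows. The windows also differed in base composition, with a median GC content of 60.3% against 52.7%, and the part of this in the shares was not tested. The letters TTCNNNGAA, which STAT factors bind, stood in 4.08% against 8.30%. A match is a description of the letters, and binding was not measured.

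Glucose enters macrophages mainly through Slc2a1, and Slc2a3 encodes a transporter of higher affinity. Slc2a1 had 8.85, 8.95 and 8.31 with LPS plus IFNg, 8.77, 8.82 and 7.39 with IL4, and 7.37 and 7.18 without stimulus. Both stimulated groups lay above the unstimulated libraries, but IL4 replicate 3 exceeded them only narrowly, and the differences did not pass: 1.43 (SE 0.46, adjusted p = 0.123) for LPS plus IFNg and 1.05 (SE 0.46, adjusted p = 0.422) for IL4. Without IL4 replicate 3 the adjusted p for LPS plus IFNg was 0.0212, with equal housekeeping means it was 0.0191, and without unstimulated replicate 2 it was 0.441. Slc2a3 was low, with 3.98, 1.17 and 1.71 with LPS plus IFNg, 2.60, 0 and 4.80 with IL4, and 4.89 and 4.36 without stimulus, and its libraries spread too widely for a call. Slc2a1 exceeded Slc2a3 in all 8 libraries, both as deposited and per kilobase of transcript.

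The hexokinases trap glucose in the cell by phosphorylating it. Hk3 and Hk2 passed, and Hk1 passed only under some of the alternative settings. Hk1 is the widely expressed form, Hk2 the inducible form of muscle, fat and activated cells, and Hk3 a form abundant in myeloid cells. Hk3 had 9.84, 9.68 and 9.83 with LPS plus IFNg, 7.90, 8.14 and 7.93 with IL4, and 8.26 and 7.85 without stimulus. Each LPS plus IFNg library lay above every other, while the IL4 and unstimulated libraries overlapped. The change was 1.73 (SE 0.20, adjusted p = 0.00316), or 3.32-fold, against unstimulated cells and 1.79 (SE 0.18, adjusted p = 0.00104) against IL4; IL4 itself gave -0.07 (SE 0.20, adjusted p = 0.986).

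Hk2 had 9.02, 9.78 and 9.56 with LPS plus IFNg, 9.52, 9.65 and 9.51 with IL4, and 7.96 and 8.08 without stimulus. All 6 stimulated libraries exceeded the unstimulated ones, and the 2 stimulated groups overlapped. The change was 1.44 (SE 0.24, adjusted p = 0.0128) with LPS plus IFNg and 1.55 (SE 0.24, adjusted p = 0.0328) with IL4, which are 2.72-fold and 2.92-fold. Their difference, LPS plus IFNg minus IL4, was -0.10 (SE 0.22, adjusted p = 0.823), with a 95% interval from -0.61 to 0.40. Without unstimulated replicate 1 or 2 the adjusted p for LPS plus IFNg was 0.0807 and 0.075, and that for IL4 was 0.117 and 0.106. The IL4 call was also lost without IL4 replicate 1, 2 or 3 (0.0765, 0.078 and 0.0751) and without LPS plus IFNg replicate 2 or 3 (0.0517 and 0.0696), which share in the estimate of the spread, while the log2 change stayed between 1.49 and 1.61. Hk1 had 8.36, 8.02 and 8.22 with LPS plus IFNg, 5.72, 6.84 and 7.57 with IL4, and 6.93 and 7.11 without stimulus. Its LPS plus IFNg libraries lay above all others. It did not pass against unstimulated cells (1.18, SE 0.50, adjusted p = 0.249) or against IL4 (1.49, SE 0.44, adjusted p = 0.0746). The IL4 libraries spread from 5.72 to 7.57, and without IL4 replicate 3 the adjusted p against IL4 was 0.0239. Against IL4 it also passed when the lowest 0.25 of genes were dropped (0.0285) and with equal housekeeping means (0.0193). Against unstimulated cells it passed with only the 2 groups in the fit (0.0338). Under the other alternatives Hk1 did not pass.

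Within each library Hk2 and Hk3 both exceeded Hk1, also per kilobase of transcript. Hk3 minus Hk2 was 0.33 ± 0.46 with LPS plus IFNg, -1.57 ± 0.05 with IL4 and 0.04 ± 0.37 without stimulus (mean ± SD on the log2 scale, n = 3, 3 and 2 libraries). As deposited, Hk3 exceeded Hk2 in 2 of 3 LPS plus IFNg libraries, 0 of 3 IL4 libraries and 1 of 2 unstimulated libraries; per kilobase the counts were 3 of 3, 0 of 3 and 2 of 2, and counts of transcript ends need not scale with length. Values with LPS plus IFNg and with IL4 did not overlap; the exact two-sided permutation test gave p = 0.1, the smallest that 3 against 3 libraries allow, and an adjusted p of 0.388 over the 33 isoenzyme tests. Hk2 minus Hk1 was 1.26 ± 0.56 with LPS plus IFNg, 2.85 ± 0.93 with IL4 and 0.999 ± 0.04 without stimulus, again with p = 0.1 and adjusted p = 0.388 between the stimuli by the exact permutation test.

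Gpi1, which turns glucose phosphate into fructose phosphate, did not pass in any comparison. Its libraries ranged from 7.95 to 8.92, and the change with LPS plus IFNg was 0.09 (SE 0.32, adjusted p = 0.939) with a 95% interval from -0.66 to 0.85.

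Phosphofructokinase commits the sugar to glycolysis and is built from liver-type (Pfkl), muscle-type (Pfkm) and platelet-type (Pfkp) subunits. Pfkl had 6.64, 6.24 and 6.14 with LPS plus IFNg, 4.42, 4.48 and 4.97 with IL4, and 4.87 and 5.08 without stimulus. With LPS plus IFNg all 3 libraries exceeded the other 5, and the change was 1.71 (SE 0.41, adjusted p = 0.0356) against IL4 and 1.36 (SE 0.46, adjusted p = 0.146), not past the threshold, against unstimulated cells. The call against IL4 was lost without LPS plus IFNg replicate 1, 2 or 3 (adjusted p = 0.122, 0.0971 and 0.0813) or IL4 replicate 1 or 2 (0.0801 and 0.0711), and when the lowest 0.25 of genes were dropped (0.0578). Pfkp had 7.33, 7.66 and 6.97 with LPS plus IFNg, 7.40, 7.91 and 7.94 with IL4, and 6.37 and 6.15 without stimulus. All stimulated libraries exceeded the unstimulated ones, yet neither difference passed, with 1.06 (SE 0.31, adjusted p = 0.0933) for LPS plus IFNg and 1.49 (SE 0.31, adjusted p = 0.0786) for IL4; with equal housekeeping means the adjusted p for LPS plus IFNg was 0.0188.

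Pfkp was the more abundant subunit in all 8 libraries, as deposited and per kilobase. Pfkp minus Pfkl was 0.98 ± 0.39 with LPS plus IFNg, 3.13 ± 0.26 with IL4 and 1.29 ± 0.30 without stimulus. The IL4 values lay above all others, with p = 0.1 against LPS plus IFNg and adjusted p = 0.388 by the exact permutation test. Pfkm was low, with 2.55, 3.38 and 3.83 with LPS plus IFNg, 4.74, 0 and 0 with IL4, and 3.13 and 4.56 without stimulus, and was listed at 0 in 2 IL4 libraries.

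Pfkfb3 showed the largest rise among the 9 genes that passed. It encodes a kinase and phosphatase whose product, a fructose bisphosphate, activates phosphofructokinase, in a form known for high kinase activity. Pfkfb3 had 8.37, 9.10 and 8.57 with LPS plus IFNg, 5.58, 5.23 and 3.11 with IL4, and 4.70 and 5.18 without stimulus. Values with LPS plus IFNg stood apart above the rest, and IL4 replicate 3 lay below all others. The change was 3.74 (SE 0.73, adjusted p = 0.0236), or 13.4-fold, against unstimulated cells and 4.04 (SE 0.66, adjusted p = 0.00758), or 16.5-fold, against IL4. The call against unstimulated cells was lost without LPS plus IFNg replicate 1, 2 or 3 (adjusted p = 0.0568, 0.0825 and 0.0663) or unstimulated replicate 1 or 2 (0.146 and 0.139), with a log2 change between 3.50 and 3.98, while that against IL4 held in each case.

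Of the related genes fixed on a list, Pfkfb1, Pfkfb2, Pfkfb4 and Tigar, which make or remove the same regulator, 0 of 4 passed by limma in any comparison, and 1 was lower in each comparison at an unadjusted p under 0.05. Pfkfb4 stood at 4.81, 0.88 and 1.17 with LPS plus IFNg, 6.08, 5.31 and 6.66 with IL4, and 5.07 and 4.36 without stimulus. LPS plus IFNg replicate 1 overlapped the unstimulated libraries, and the difference from IL4 was -3.73 (SE 1.13, adjusted p = 0.0793).

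Aldolase cleaves fructose bisphosphate into triose phosphates, and Aldoa is its widespread form. Aldoa had 9.84, 9.56 and 9.71 with LPS plus IFNg, 10.06, 10.12 and 10.23 with IL4, and 10.47 and 10.03 without stimulus. Here the LPS plus IFNg libraries were the lowest, though the difference from unstimulated cells did not pass (-0.55, SE 0.19, adjusted p = 0.164); with equal housekeeping means it was 0.06 and so changed sign. Aldoc, the brain form, had 0 in every LPS plus IFNg library, and was at 0, 3.07 and 0 with IL4 and at 1.73 and 4.60 without stimulus, and lay under Aldoa in all 8 libraries.

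Tpi1 interconverts the triose phosphates. Tpi1 had 9.78, 9.75 and 10.06 with LPS plus IFNg, 8.69, 8.71 and 8.87 with IL4, and 8.86 and 8.71 without stimulus. The LPS plus IFNg libraries lay above all others, and the IL4 libraries overlapped the unstimulated ones. The change was 1.08 (SE 0.18, adjusted p = 0.0118), or 2.11-fold, against unstimulated cells, 1.11 (SE 0.16, adjusted p = 0.00461) against IL4, and -0.03 (SE 0.18, adjusted p = 1.0) for IL4. The call against unstimulated cells held whichever single library was left out but was lost without the intensity trend in the variance (adjusted p = 0.0574).

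Gapdh, which oxidises the triose phosphate and makes NADH, was listed at unusually low values for this abundant enzyme, with 3.04, 3.32 and 3.91 with LPS plus IFNg, 3.38, 3.58 and 4.84 with IL4, and 1.80 and 0.48 without stimulus. The 2 unstimulated libraries were the lowest, and neither difference passed. The mouse genome holds many processed copies of this gene, and how reads matching several of them were handled is unknown here, so its level is uncertain.

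Pgk1 transfers a phosphate from the oxidised triose to ADP and so makes ATP. Pgk1 had 9.25, 9.43 and 9.66 with LPS plus IFNg, 7.99, 8.51 and 8.14 with IL4, and 7.76 and 7.90 without stimulus. Values were highest with LPS plus IFNg, the IL4 libraries lay between, and the unstimulated libraries were the lowest. The change was 1.62 (SE 0.23, adjusted p = 0.0066), or 3.06-fold, against unstimulated cells and 1.23 (SE 0.20, adjusted p = 0.00789) against IL4, and the smaller difference of IL4 from unstimulated cells did not pass (0.38, SE 0.23, adjusted p = 0.549).

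Pgam1 moves the phosphate group along the sugar acid. Pgam1 had 10.64, 10.68 and 10.91 with LPS plus IFNg, 10.25, 10.36 and 10.14 with IL4, and 9.86 and 9.99 without stimulus. The 3 groups did not overlap and stood in the same order as for Pgk1. The change was 0.82 (SE 0.17, adjusted p = 0.0289) against unstimulated cells, and 0.49 (SE 0.15, adjusted p = 0.0808) against IL4, which did not pass. When any single library other than IL4 replicates 2 and 3 was left out, the adjusted p against unstimulated cells was 0.0517 to 0.0959.

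The enolases release water to form phosphoenolpyruvate, with Eno1 as the general, Eno2 as the neuronal and Eno3 as the muscle form. Eno1 had 6.10, 7.38 and 6.78 with LPS plus IFNg, 6.66, 5.85 and 5.88 with IL4, and 5.32 and 5.98 without stimulus. Libraries with LPS plus IFNg lay above the unstimulated ones and overlapped those with IL4, and no difference passed (1.10, SE 0.50, adjusted p = 0.292 for LPS plus IFNg). Eno2 had 3.84, 3.64 and 5.07 with LPS plus IFNg, 5.07, 5.55 and 3.47 with IL4, and 3.86 and 4.29 without stimulus. Eno3 had 3.64, 2.28 and 3.27 with LPS plus IFNg, 4.12, 3.68 and 0 with IL4, and 2.89 and 4.29 without stimulus. Both overlapped between all groups. Eno1 exceeded Eno2 and Eno3 in all 8 libraries, as deposited and per kilobase. At 5.32 to 7.38, Eno1 itself lay under Pgam1 (9.86 to 10.91) and Pkm2 (9.70 to 10.58), the genes of the neighbouring steps. How reads matching several places were handled is unknown, and the part of this in the level of Eno1 was not tested.

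Pyruvate kinase, listed under the older symbol Pkm2, makes pyruvate and ATP; reads from the shared transcript end cannot separate its M1 and M2 splice forms. Pkm2 had 10.58, 10.43 and 10.55 with LPS plus IFNg, 9.70, 9.73 and 10.001 with IL4, and 9.84 and 10.04 without stimulus. All 3 LPS plus IFNg libraries exceeded the other 5, and the change was 0.71 (SE 0.15, adjusted p = 0.0246) against IL4 and 0.58 (SE 0.17, adjusted p = 0.103), not past the threshold, against unstimulated cells. The call against IL4 was lost without LPS plus IFNg replicate 1, 2 or 3 (adjusted p = 0.0711, 0.0578 and 0.067) or IL4 replicate 1 or 2 (0.0774 and 0.0582) and without the intensity trend (0.103), and the difference from unstimulated cells passed with equal housekeeping means (0.016).

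Lactate dehydrogenase is a tetramer of Ldha and Ldhb subunits, and forms rich in Ldha are known to favour lactate. Ldha had 9.81, 9.74 and 10.09 with LPS plus IFNg, 9.79, 9.73 and 9.78 with IL4, and 9.12 and 9.14 without stimulus. All stimulated libraries exceeded the unstimulated ones, and the stimulated groups overlapped. The change was 0.75 (SE 0.17, adjusted p = 0.0382) with LPS plus IFNg and 0.64 (SE 0.17, adjusted p = 0.162), not past the threshold, with IL4, and LPS plus IFNg minus IL4 was 0.11 with a 95% interval from -0.24 to 0.46. When any single library other than IL4 replicate 2 was left out, the adjusted p for LPS plus IFNg was 0.0524 to 0.101.

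Ldhb had 1.72, 0 and 1.48 with LPS plus IFNg, 4.50, 4.39 and 3.89 with IL4, and 5.57 and 3.12 without stimulus. In LPS plus IFNg libraries it lay below all others, with -3.28 (SE 1.05, adjusted p = 0.123) against unstimulated cells and -3.19 (SE 0.94, adjusted p = 0.0711) against IL4, neither past the threshold; without unstimulated replicate 1 or 2 the adjusted p against IL4 was 0.0415 and 0.044. Ldhb minus Ldha was -8.81 ± 0.84 with LPS plus IFNg, -5.51 ± 0.34 with IL4 and -4.79 ± 1.73 without stimulus on the log2 scale. The exact permutation test between the stimuli gave p = 0.1 and adjusted p = 0.388. Zeros were more numerous in the stimulated than in the unstimulated libraries. Between the stimuli they were more numerous with IL4 (9846 to 10210 genes) than with LPS plus IFNg (9606 to 9627). Their part in the values of low genes such as Ldhb was not tested.

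Lactate leaves the cell through Slc16a3, the exporter of glycolytic cells, and Slc16a1, which carries lactate and pyruvate both ways. Slc16a3 had 7.73, 7.55 and 8.58 with LPS plus IFNg, 4.67, 4.83 and 5.08 with IL4, and 5.24 and 4.90 without stimulus. Libraries with LPS plus IFNg stood far above all others, which overlapped each other. The change was 2.88 (SE 0.43, adjusted p = 0.00783), or 7.38-fold, against unstimulated cells and 3.09 (SE 0.38, adjusted p = 0.00257), or 8.53-fold, against IL4, and it passed whichever single library was left out in both comparisons.

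Slc16a1 had 6.44, 7.60 and 7.17 with LPS plus IFNg, 7.33, 8.42 and 9.41 with IL4, and 6.82 and 7.36 without stimulus. Its highest values were those of IL4 replicates 2 and 3, IL4 replicate 1 overlapped the unstimulated and LPS plus IFNg libraries, and no difference passed. As deposited, Slc16a3 exceeded Slc16a1 in 2 of 3 LPS plus IFNg libraries, 0 of 3 IL4 libraries and 0 of 2 unstimulated libraries, and per kilobase in 3 of 3, 0 of 3 and 0 of 2. On the deposited scale Slc16a3 minus Slc16a1 was 0.88 ± 0.81 with LPS plus IFNg, -3.53 ± 0.84 with IL4 and -2.02 ± 0.62 without stimulus, with p = 0.1 and adjusted p = 0.388 between the stimuli and p = 0.2, the smallest that 3 against 2 libraries allow, for LPS plus IFNg against no stimulus by the exact permutation test. The fixed list beside the exporters held the chaperones Bsg and Emb and the related transporters Slc16a6 and Slc16a7. Of these 4, 0 passed by limma in any comparison, with or without adjustment.

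**Figure D3:**
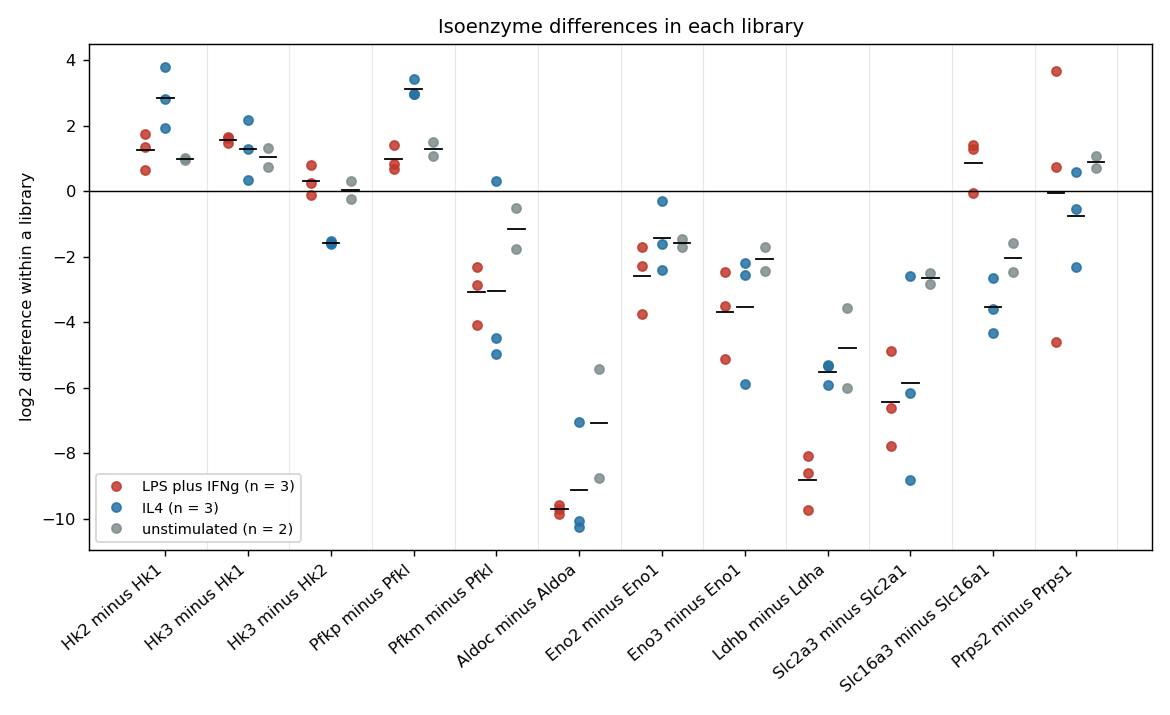
Log2 value of 1 isoenzyme minus that of another in the same library (vertical axis) for 12 pairs; points are libraries and black lines are group means. Slc16a3 minus Slc16a1 lies at -0.05 to 1.41 with LPS plus IFNg and at -4.34 to -2.66 with IL4, and Pfkp minus Pfkl at 0.70 to 1.42 with LPS plus IFNg and at 2.97 to 3.43 with IL4.

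Pdk1 phosphorylates pyruvate dehydrogenase and so holds back pyruvate from mitochondria. Pdk1 ranged from 4.99 to 6.86 over the libraries, with 1.20 (SE 0.57, adjusted p = 0.31) for LPS plus IFNg, which did not pass. Of 14 further genes of pyruvate entry on the fixed list, among them the pyruvate dehydrogenase subunits and the mitochondrial pyruvate carrier, 0 passed by limma in any comparison; at an unadjusted p under 0.05, LPS plus IFNg gave 1 higher and 1 lower against unstimulated cells and 1 higher and 2 lower against IL4.

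In the oxidative part of the pentose phosphate pathway the dehydrogenase Pgd was the gene that passed. G6pdx, the entry enzyme of the pathway, had 8.21, 7.59 and 7.86 with LPS plus IFNg, 7.16, 7.25 and 6.89 with IL4, and 7.23 and 8.02 without stimulus. Unstimulated replicate 2 reached into the range of LPS plus IFNg, and the difference of LPS plus IFNg from IL4 did not pass (0.79, SE 0.29, adjusted p = 0.133), although it did with equal housekeeping means (adjusted p = 0.0268). Pgls, the lactonase of the next step, ranged from 4.94 to 7.98, with its lowest value in LPS plus IFNg replicate 2.

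Pgd, which makes NADPH and ribulose phosphate, had 9.94, 9.96 and 9.65 with LPS plus IFNg, 8.70, 8.95 and 8.53 with IL4, and 9.03 and 8.82 without stimulus. The LPS plus IFNg libraries lay above all others, and the IL4 libraries overlapped the unstimulated ones. The change was 0.92 (SE 0.20, adjusted p = 0.0356) against unstimulated cells and 1.12 (SE 0.18, adjusted p = 0.00744), or 2.17-fold, against IL4. The call against unstimulated cells was lost without LPS plus IFNg replicate 1 or 2 (adjusted p = 0.0927 and 0.106), IL4 replicate 1 (0.0591) or unstimulated replicate 1 or 2 (0.0835 and 0.151), and that against IL4 held whichever single library was left out. H6pd is an enzyme of the oxidative part inside the endoplasmic reticulum. It had 6.14, 5.64 and 6.98 with LPS plus IFNg, 4.61, 4.09 and 2.89 with IL4, and 6.21 and 5.35 without stimulus. Its IL4 libraries were the lowest, and the difference of LPS plus IFNg from IL4 was 2.39 (SE 0.64, adjusted p = 0.0524), just outside the threshold; it passed when the lowest 0.25 of genes were dropped (0.0293), without the intensity trend (0.0467) and with equal housekeeping means (0.0221).

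In the non-oxidative part, 0 of 5 genes passed by limma in any comparison; at an unadjusted p under 0.05, 1 was lower with IL4 than without stimulus, and 1 was higher and 1 lower with LPS plus IFNg than with IL4. Rpia and Rpe, which interconvert the pentose phosphates, ranged from 7.18 to 7.89 and from 8.99 to 10.40. Tkt, which moves short carbon units between sugars, had 7.85, 8.64 and 8.33 with LPS plus IFNg, 9.52, 9.53 and 9.02 with IL4, and 8.59 and 9.49 without stimulus. Its LPS plus IFNg libraries lay below those with IL4 (-1.08, SE 0.32, adjusted p = 0.0696), a difference that passed when the lowest 0.25 of genes were dropped (adjusted p = 0.028) and with the 2 groups alone in the fit (0.0386), whereas with equal housekeeping means it was -0.58 (0.237). Taldo1, the transaldolase that links the pathway back to glycolysis, had 11.69, 12.29 and 11.51 with LPS plus IFNg, 11.44, 11.29 and 11.57 with IL4, and 12.51 and 12.03 without stimulus. The IL4 libraries lay below the unstimulated ones, without passing (-0.83, SE 0.28, adjusted p = 0.285).

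Shpk, which phosphorylates sedoheptulose and so feeds the non-oxidative part, had 0, 3.86 and 3.38 with LPS plus IFNg, 0, 0 and 0 with IL4, and 0.39 and 0 without stimulus. It was above 0 in 2 LPS plus IFNg libraries and in 1 unstimulated library, and no difference passed with all libraries; without LPS plus IFNg replicate 1, the library at 0, the adjusted p was 0.0166 against unstimulated cells and 0.00738 against IL4.

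Prps1 and Prps2 turn ribose phosphate into the activated form used to build nucleotides. Prps1 had 4.58, 1.54 and 3.38 with LPS plus IFNg, 7.17, 7.80 and 6.17 with IL4, and 5.60 and 5.23 without stimulus. The 3 groups did not overlap: LPS plus IFNg was lowest and IL4 highest. The change was -3.87 (SE 0.85, adjusted p = 0.0246) against IL4, and -2.25 (SE 0.95, adjusted p = 0.251) against unstimulated cells, which did not pass. The call was lost without LPS plus IFNg replicate 3 (adjusted p = 0.0603), IL4 replicate 1 or 2 (0.0748 and 0.0759) or unstimulated replicate 1 or 2 (0.0626 and 0.0732). Prps2 had 0, 5.23 and 4.12 with LPS plus IFNg, 6.62, 5.48 and 6.75 with IL4, and 6.67 and 5.94 without stimulus. It was at 0 in LPS plus IFNg replicate 1, its LPS plus IFNg libraries lay below all others, and no difference passed (-3.17, SE 1.29, adjusted p = 0.179 against IL4).

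**Figure D4:**
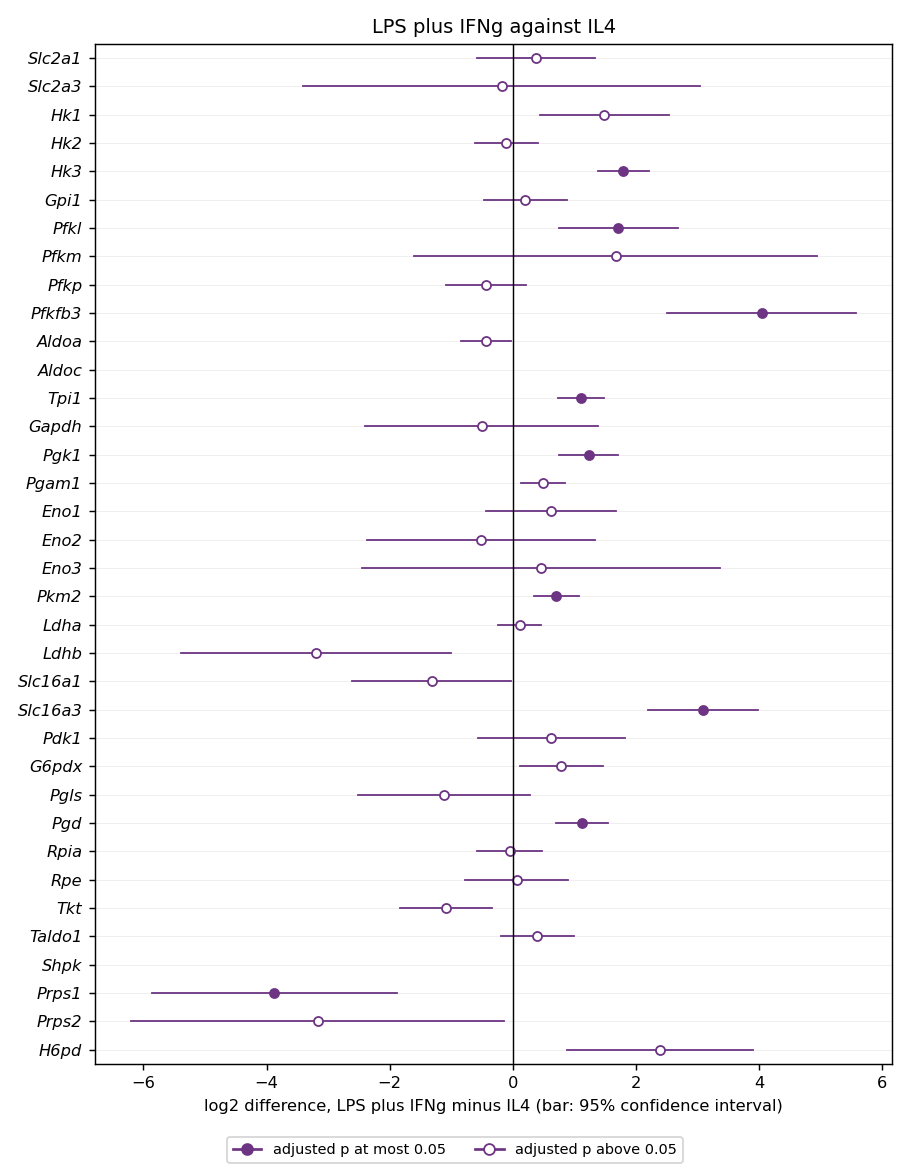
Difference of group means, LPS plus IFNg minus IL4, on the log2 scale (horizontal axis) with its 95% confidence interval; filled points have an adjusted p of at most 0.05. The 8 filled points to the right of 0 run from 0.71 for Pkm2 to 4.04 for Pfkfb3, and Prps1 is filled at -3.87; genes listed at 0 in a whole group have no point.

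Around the pathway, 60 of 78 genes on fixed lists could be tested. The lists held other sugar transporters and isoenzymes, gluconeogenesis and glycogen, shuttles of reducing power and pyruvate entry. They also held export partners with related transporters, triose side products and further pentose phosphate genes. Against unstimulated cells LPS plus IFNg gave 2 higher and 1 lower of the 60, with a median change of -0.21, and IL4 gave 1 higher and 0 lower by limma, with a median of 0.01. LPS plus IFNg against IL4 gave 1 higher and 3 lower, with a median of -0.24. At an unadjusted p under 0.05 the counts were 6 higher and 8 lower for LPS plus IFNg against unstimulated cells, 4 higher and 7 lower for IL4 against unstimulated cells, and 6 higher and 13 lower for LPS plus IFNg against IL4. These counts are to be read beside the shares of all genes given above.

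Slc2a6, a lysosomal sugar transporter of the glucose transporter family, stood at 7.38, 6.75 and 6.61 with LPS plus IFNg, 3.28, 5.26 and 4.12 with IL4, and 0.13 and 0 without stimulus. The 3 groups did not overlap. The change with LPS plus IFNg was 6.85 (SE 0.81, adjusted p = 0.00375) against unstimulated cells and held whichever single library was left out, though the size of a change from values near 0 is uncertain. Against IL4 it was 2.69 (SE 0.73, adjusted p = 0.0532), and for IL4 against unstimulated cells it was 4.16 (SE 0.81, adjusted p = 0.0667).

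Gpd2, the mitochondrial enzyme of the glycerol phosphate shuttle, stood at 8.86, 8.86 and 8.36 with LPS plus IFNg, 7.43, 7.08 and 8.30 with IL4, and 6.58 and 7.12 without stimulus. Values were highest with LPS plus IFNg, with a change of 1.84 against unstimulated cells (SE 0.40, adjusted p = 0.0336), lost when any single library other than IL4 replicates 2 and 3 was left out (0.0549 to 0.192). Slc2a9, a transporter of urate and sugars, was higher with LPS plus IFNg than with IL4, by 1.88 (SE 0.47, adjusted p = 0.0402), which was lost without LPS plus IFNg replicate 1, 2 or 3 or IL4 replicate 1 or 3 (0.0546 to 0.121).

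Among these lists 3 genes were lower with LPS plus IFNg than with IL4, namely Pgm1, Mdh2 and G6pc3, and 1, Pgm2l1, was lower than without stimulus. They were 2 of 12 tested genes of gluconeogenesis and glycogen and 1 of 7 of the shuttles against IL4, and 1 of the 12 against unstimulated cells. Over all genes tested, 6.96% were lower against IL4 and 4.25% against unstimulated cells, so counts in lists this small say little about the lists. Pgm1 stood at 5.65, 5.73 and 5.82 with LPS plus IFNg, 7.23, 7.34 and 6.98 with IL4, and 6.75 and 6.03 without stimulus. Its change against IL4 was -1.45 (SE 0.30, adjusted p = 0.0192), lost without LPS plus IFNg replicate 1 or 2 or IL4 replicate 1 or 2 (0.0549 to 0.0598) and with equal housekeeping means (0.109). Mdh2, the mitochondrial malate dehydrogenase, changed by -1.29 against IL4 (SE 0.24, adjusted p = 0.014), which held whichever single library was left out but not with equal housekeeping means (0.0739). G6pc3, a glucose phosphatase, changed by -1.81 against IL4 (SE 0.46, adjusted p = 0.0424), lost when any single library other than LPS plus IFNg replicate 3 was left out (0.0647 to 0.112) and with equal housekeeping means (0.141). Pgm2l1, which makes glucose bisphosphate, changed by -2.73 against unstimulated cells (SE 0.60, adjusted p = 0.035), lost when any single library other than IL4 replicates 2 and 3 was left out (0.0571 to 0.206) and with equal housekeeping means (0.0704).

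With IL4, Dera, which cleaves deoxyribose phosphate, was the gene of these lists that passed. It stood at 7.55, 7.91 and 7.86 with LPS plus IFNg, 8.24, 8.25 and 8.35 with IL4, and 7.16 and 6.92 without stimulus. Its change with IL4 was 1.24 (SE 0.21, adjusted p = 0.0461), lost whichever single library was left out (0.0533 to 0.105).

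Hif1a encodes the oxygen-sensitive subunit of the hypoxia-inducible factor, known to drive many glycolytic genes. It stood at 9.95, 10.22 and 9.71 with LPS plus IFNg, 8.61, 8.84 and 8.81 with IL4, and 7.96 and 8.37 without stimulus. The 3 groups did not overlap. The change was 1.79 (SE 0.22, adjusted p = 0.00446) against unstimulated cells and 1.20 (SE 0.20, adjusted p = 0.0084) against IL4, both without loss when any single library was left out, and the difference of IL4 from unstimulated cells was 0.59 (SE 0.22, adjusted p = 0.346).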

How the data were processed

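Oligo-dT beads were used to isolate polyadenylated RNA, per the labels' protocols; each sample's cDNA received a barcode, samples were mixed in amounts set by qPCR of Actb, and the stranded libraries of transcript 3' ends were enriched by PCR without a mention of molecular identifiers. TopHat and the genome build mm9 are named in the submitters' processing notes. No source used here gives a version, a counting tool, the handling of zeros or that of reads matching several places. The authors deposited log2 values, quantile-normalised per the file's name, of which 20259 rows and 8 columns were read; 1 row without a symbol was left out. Such normalisation would mask a change of total RNA, and it leaves no depth per library.

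A model of the log2 values of 13615 genes that varied was fitted in limma 3.58.1 (R 4.3.3), with a mean per group over all 8 libraries (5 residual and 2.31 prior degrees of freedom) and an intensity trend in the prior variance. Tests were two-sided with Benjamini-Hochberg adjustment over these genes and a threshold of 0.05. Confidence intervals are at 95% and cover the spread between libraries. Isoenzyme differences within a library were compared with exact permutation tests (scipy 1.17.1), adjusted over 33 tests. The fit was tested on simulated data. Transcript lengths came from GENCODE M21, matched by RefSeq accession for 36 genes, and promoter windows from RefSeq.

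The members and lists were chosen with earlier results of these data known. Values per library are given for members that passed in a comparison and their isoenzymes, and listed genes around the pathway are named where they passed. Values per library of Slc2a1, Slc2a3, Eno1, Eno2, Eno3, Gapdh, G6pdx, H6pd, Tkt, Taldo1 and Shpk were added after their values were seen. Those of Aldoa, Aldoc and the listed gene Pfkfb4, which passed in no comparison, also stand outside this rule. Alternatives were a fit without the intensity trend, a fit of the 2 compared groups alone, a filter dropping the lowest 0.25 of genes (means up to 1.82), 1 added on the linear scale to damp low values, values below 0 set to 0, equal means of 15 housekeeping genes, the replicate block and each library left out.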

Additional observations from a re-analysis of the deposited data

How the results depend on the processing

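No called value of the 36 genes changed sign under any alternative run; of 1614 values recomputed, 1524 kept their side of the threshold, 67 lost it and 23 gained it, and 53 values that did not pass changed sign. Equal housekeeping means turned the sign of 4 such values with IL4, 5 with LPS plus IFNg against unstimulated cells, Aldoa and Taldo1 among them, and 5 against IL4. With IL4, 0 genes were higher, in place of 1, without the intensity trend, with only the 2 groups compared and with the replicate block. Against unstimulated cells, LPS plus IFNg gave 5 higher genes, in place of 9, without the trend. Against IL4, 2 genes were lower, in place of 1, without the trend, with only the 2 groups and when the lowest 0.25 of genes were dropped, and 0 with the replicate block; the cause was not tested. Leaving out each library in turn gave 0 to 1 higher with IL4, 4 to 9 with LPS plus IFNg against unstimulated cells, and 6 to 9 higher and 0 to 1 lower with LPS plus IFNg against IL4; the 4 came without unstimulated replicate 1 or 2, where the lone unstimulated library was assumed to vary like the other groups. Calls lost without the trend were Tpi1 (adjusted p = 0.0574), Pgam1 (0.123), Ldha (0.152), Pgd (0.117), Gpd2 (0.0642) and Pgm2l1 (0.0593) against unstimulated cells, Pkm2 (0.103) and Slc2a9 (0.0547) against IL4, and Hk2 (0.0963) and Dera (0.106) with IL4. With only the 2 groups in the fit Ldha (0.0687), Pfkl (0.0899), Pkm2 (0.0736), G6pc3 (0.0888), Hk2 (0.0817) and Dera (0.123) were lost. When the lowest 0.25 of genes were dropped Ldha (0.0738), Pfkl (0.0578) and Dera (0.0735) were lost. Calls gained with only the 2 groups were Slc2a1 (0.0367) and Hk1 (0.0338) against unstimulated cells, and Tkt (0.0386) and Slc2a6 (0.0266) against IL4. Dropping the lowest 0.25 of genes gained Hk1 (0.0285), Tkt (0.028), H6pd (0.0293) and Slc2a6 (0.0417) against IL4. It also gained Slc2a1 (0.0455) with LPS plus IFNg and Slc2a6 (0.0385) with IL4, both against unstimulated cells.

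Over all genes, IL4 gave 7 higher and 0 lower with only its 2 groups in the fit, and 110 higher without the lowest 0.25 of genes, in place of 70 higher and 108 lower. Leaving out each library in turn moved these to between 36 and 123 higher and between 45 and 183 lower, lowest without LPS plus IFNg replicate 2 and highest without unstimulated replicate 2 (higher) or 1 (lower); over all genes LPS plus IFNg then gave 341 to 556 higher and 309 to 598 lower against unstimulated cells, the 309 without unstimulated replicate 2, and 580 to 774 higher and 658 to 804 lower against IL4. The replicate numbers are not stated to pair libraries, and same-numbered libraries had correlations of their deviations from group means of -0.0791 to 0.0718 over 7283 genes, so the block is no pairing known from the design. With the replicate block, 6 genes of the pathway were higher with LPS plus IFNg against unstimulated cells and 6 against IL4; over all genes it gave 7 higher and 1 lower with IL4, and 255 higher and 256 lower with LPS plus IFNg against unstimulated cells, and 629 higher and 691 lower against IL4. The calls of the 36 genes lost with the block were Tpi1 (adjusted p = 0.0582), Pgam1 (0.118), Ldha (0.143) and Pgd (0.0664) against unstimulated cells. Pfkl (0.105), Pkm2 (0.0674) and Prps1 (0.0551) were lost against IL4, and Hk2 (0.134) with IL4. Slc2a1 was gained with LPS plus IFNg against unstimulated cells (0.0424). Of the listed genes around the pathway, Gpd2 (0.126) was lost against unstimulated cells and Dera (0.218) with IL4. Pgm1 (0.064), G6pc3 (0.0754) and Slc2a9 (0.073) were lost against IL4. Of 264 isoenzyme differences recomputed, 10 moved by 1 SD or more, all of them by leaving out a library. Depth is unknown, so values near 0, as for Slc2a3, Pfkm, Aldoc, Ldhb, Shpk and Prps2, cannot be told from losses at low depth.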
